A study of Mus musculus with 38 samples.

Results

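Base-unpairing regions (BURs) that lie in the olfactory receptor gene clusters of the mouse were examined. A BUR is a short stretch of genomic DNA whose strands separate readily, and the reference list was made by binding his-tagged recombinant SATB1 to sonicated, protein-free thymocyte DNA in vitro. The members are the BURs on chromosomes 1 to 19 whose midpoint lies within 50 kb of a protein-coding gene with a symbol starting with Olfr in the GENCODE vM1 annotation of mm9. There were 4649 such BURs of 238380 in the whole list and of 219828 on chromosomes 1 to 19, and they lay around 1106 Olfr genes in 79 windows covering 33.6 Mb. Olfr genes less than 500 kb apart were joined into 1 cluster, which gave 53 clusters. The choice used positions only and no ChIP signal.

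Peak lists of 10 ChIP-seq samples were set against these BURs, all from wild-type Satb1+/+ C57BL/6 mice. Urea ChIP-seq, which immunoprecipitates from fixed chromatin after ultracentrifugation through urea has stripped proteins not crosslinked to DNA, was available for SATB1 in thymocytes, in brain cortex cells and in primary epidermal keratinocytes of the skin with 2 lists each, and for CTCF in thymocytes and in skin with 1 list each. Standard ChIP-seq of SATB1 in thymocytes had 2 lists. The urea lists of brain are labelled as 5 and 6 weeks of age while their protocol names postnatal day 13. Those of skin are labelled as day 13 while their protocol names day 5. In its methods, the study names newborn mice for skin and mice of at least 6 weeks for brain. The thymocyte CTCF list and standard replicate 1 carry 6 weeks in the title and day 13 as the age. The thymocyte urea SATB1 lists and standard replicate 2 have day 13 both as the label and in the protocol. Age therefore cannot be told apart from tissue with certainty. The antibody of standard replicate 1 differed from that of the other SATB1 lists, and amplification cycles, sonication times and antibody amounts differed between some replicates. The lists hold called peaks and no read counts, so the depth of each library could not be computed, and the study calls the total aligned reads of its urea ChIP-seq similar between the cell types. Nor do they hold expression values against which the labelled cell types could be checked. The number of called peaks was 11210 and 10846 in skin, 45049 and 38882 in thymocytes, 117963 and 109154 in brain, 48175 and 27147 with standard SATB1, and 20323 and 31509 with CTCF in thymocytes and skin.

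Olfactory receptor genes form the largest gene family of the mouse genome. Most have their whole coding sequence in a single exon, they lie in tandem arrays on nearly every chromosome, and each sensory neuron of the nose expresses one allele of one of them, while the genes are silent in most other tissues. SATB1 is a nuclear protein known to bind the minor groove of BURs, which typically hold runs in which one strand carries no C or no G (an ATC context), and to take part in chromatin folding in thymocytes. CTCF is the zinc finger protein found at many chromatin loop anchors.

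A pair of sequences is shown from BURs picked as extremes of the set, so they are not typical members. Each is 300 bases around the point of strongest in vitro binding, read from the plus strand of NCBIM37 (mm9). Capitals mark stretches of at least 20 bases that lack C or lack G. The first is the BUR with the highest mean enrichment in brain among those bound in all 6 urea SATB1 lists (chr2:86999971-87000270, intergenic, 9.26 kb from Olfr1111), and the other lies in the longest BUR (chr10:128551519-128551818, intergenic, 1.81 kb from Olfr769).
Bound in all 6: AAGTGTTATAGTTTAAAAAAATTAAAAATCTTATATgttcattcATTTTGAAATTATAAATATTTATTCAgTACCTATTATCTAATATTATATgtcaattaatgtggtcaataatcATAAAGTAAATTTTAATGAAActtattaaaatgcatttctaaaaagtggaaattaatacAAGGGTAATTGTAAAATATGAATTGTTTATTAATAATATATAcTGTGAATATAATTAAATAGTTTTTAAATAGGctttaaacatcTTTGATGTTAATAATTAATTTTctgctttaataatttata
Longest: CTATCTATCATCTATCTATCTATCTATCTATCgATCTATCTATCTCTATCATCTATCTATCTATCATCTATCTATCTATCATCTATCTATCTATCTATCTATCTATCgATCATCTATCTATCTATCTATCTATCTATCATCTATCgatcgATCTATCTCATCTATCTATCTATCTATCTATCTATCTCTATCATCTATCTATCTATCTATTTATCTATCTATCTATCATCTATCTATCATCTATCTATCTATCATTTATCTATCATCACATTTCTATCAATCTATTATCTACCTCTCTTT
The AT content of these stretches was 83.3% and 72.3%, and 200 and 293 of their 300 bases were in capitals. The stretch bound in all 6 lists thus had fewer bases in such runs, and the stretch shown of the longest BUR, which spans 2088 bp, is largely a repeat of 4 bases.

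The first question was how densely BURs lie in these clusters. The windows held 138 BURs per Mb, against 91.2 per Mb in the rest of chromosomes 1 to 19, a ratio of 1.52. The AT content of the windows was 60.7% and that of the rest 58.0%. BURs covered 6.61% of the bases of the windows and 4.22% of the rest, and neighbouring BURs were a median of 3916 bp apart in the windows and 5346 bp apart elsewhere. The excess of BURs was close to that of gene-poor DNA, since 100 kb bins with no protein-coding gene within 50 kb held 137 BURs per Mb at an AT content of 60.8%. Windows around the vomeronasal receptor genes (Vmn1r and Vmn2r), the other large chemoreceptor family, held 119 BURs per Mb at 60.9% AT.

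When 100 kb bins were compared at like AT content, most of the excess was gone. The 337 bins that lay mostly within the windows held 138 BURs per Mb, and bins outside them, weighted to the same AT content in steps of 2 percentage points, held 130.3 per Mb, so that the ratio was 1.06 in place of 1.51. Bins of 60 to 62% AT, the largest group, held a median of 14 BURs in the windows (quartiles 11 and 16) and 12 outside (10 and 15). At 62 to 64% the medians were 20 and 19, and at 58 to 60% both were 8. Within these AT classes the interquartile ranges of the bins inside and outside overlapped.

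The clusters differed among themselves by more than the windows differed from the rest. The 16 clusters named here, those with at least 20 Olfr genes, held 901 of the 1106 genes and 3848 (82.8%) of the BURs, at 158 per Mb. The other 37 clusters, of 1 to 19 genes, held 801 BURs at 86.4 per Mb. Density ranged from 61.6 to 206 per Mb over the named clusters and from 19.8 to 216 per Mb over the others, and it lay above that of the rest of the genome in 15 of the 16 and in 12 of the 37. Across the 53 clusters, density followed AT content (Spearman's rho = 0.91, Pearson's r = 0.88). It followed the number of Olfr genes per Mb less closely (rho = 0.29, r = 0.36). These coefficients describe the clusters of 1 list, whose sizes differ widely.

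**Figure D1:**
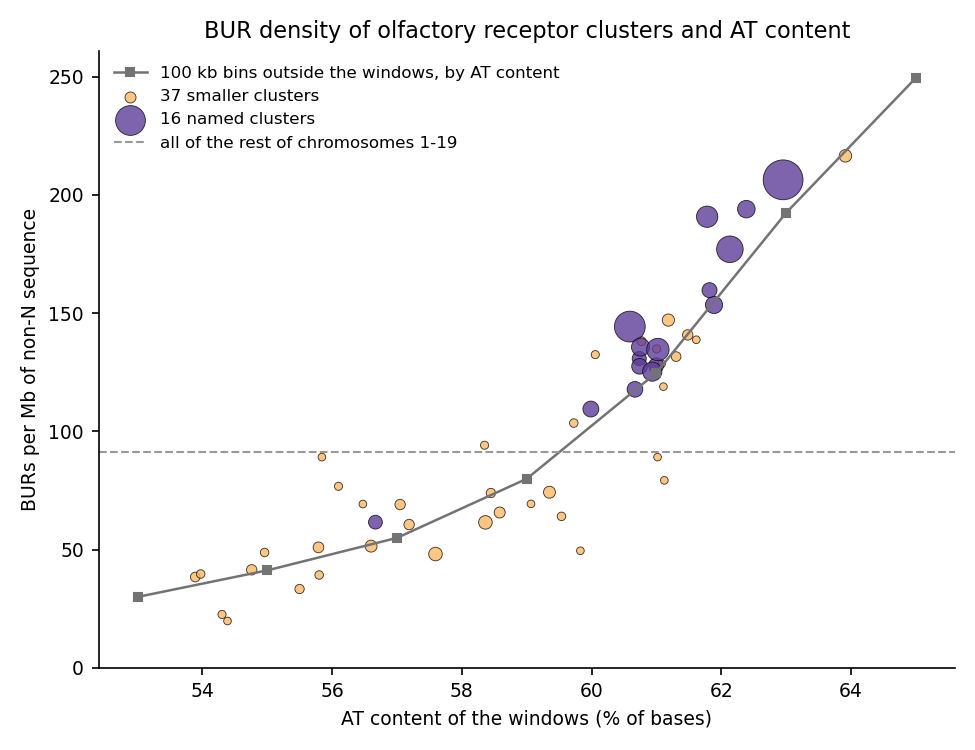
BURs per Mb of each of the 53 clusters against the AT content of its windows, with point area growing with the number of Olfr genes. The grey line joins the density of 100 kb bins outside the windows in AT steps of 2 percentage points, the dashed line is the rest of chromosomes 1 to 19 (91.2 per Mb), and the clusters lie along the grey line from 19.8 to 216 BURs per Mb.

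The largest cluster, on chromosome 2 (chr2:85171054-90122730, 221 genes from Olfr987 on), was also the densest named one. It held 1034 BURs, or 206 per Mb, at 63.0% AT. A second cluster of chromosome 2 (chr2:111070975-111997157, 37 genes) and the cluster of chromosome 10 (chr10:128426905-129648205, 58 genes) held 194 and 191 per Mb. The cluster of 94 genes on chromosome 9 (chr9:37518857-39995679) held 456 BURs at 177 per Mb. The cluster of 25 genes on chromosome 16 (chr16:58760265-59362042) and that of 35 genes on chromosome 9 (chr9:18559100-20140538) followed, at 160 and 153 per Mb. All 6 of these had an AT content of at least 61.8%.

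The cluster on chromosome 7 that also holds the beta-globin genes (chr7:109625287-112517869, 129 Olfr genes) is the site of the class I receptors, the group related to the odorant receptors of fish. It held 388 BURs, or 144 per Mb, at 60.6% AT, in the middle of the range. A further pair of clusters on chromosome 7 (chr7:114958094-116037934, 40 genes, and chr7:113821048-114291843, 25 genes) held 136 and 128 per Mb. The cluster of chromosome 19 (chr19:11902567-13994534, 65 genes) held 135 per Mb, and those of chromosome 6 (chr6:42410075-43186635, 21 genes), chromosome 14 (chr14:50513935-51691117, 28 genes) and chromosome 17 (chr17:37222136-38473042, 46 genes) held 131, 127 and 125 per Mb. The first cluster of chromosome 2 (chr2:36232298-37188253, 28 genes) held 118 per Mb and the cluster of chromosome 11 around Olfr20 (chr11:73164341-74179111, 29 genes) 109. The sparsest was the cluster of 20 genes on chromosome 11 (chr11:58268417-58655544), with 30 BURs at 61.6 per Mb and 56.7% AT. Outside the named clusters, the densest of all was one of 15 genes on chromosome 7 (chr7:93417240-93843894, 114 BURs at 216 per Mb and 63.9% AT), chosen after its values were seen.

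Within the clusters, BURs lay beside the receptor genes and spared their coding exons. No BUR had its midpoint in an Olfr coding exon, although these exons cover 1.04 Mb (3.10% of the windows) at 55.3% AT. By at least 1 bp, 121 BURs reached into a coding exon, of 117 of the 1106 genes, and BURs covered 0.583% of Olfr coding bases against 0.902% of the coding bases of other genes. Annotated introns of Olfr genes held 152 BURs at 201 per Mb, untranslated exons 8, and 4265 (91.7%) of the BURs were intergenic, at 149 per Mb. Since 908 of the genes are annotated with 1 exon alone, part of what is counted as intergenic may be unannotated leader exons and introns.

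The first 2 kb outside the genes were the densest. BURs were at 273 per Mb within 2 kb of an Olfr gene, 173 from 2 to 5 kb, 122 from 5 to 10 kb, 105 from 10 to 25 kb and 82.7 from 25 to 50 kb, and beyond the windows at 66.0 per Mb from 50 to 100 kb. AT content changed in the same order, from 64.1% within 2 kb to 58.7% at 25 to 50 kb and 57.3% at 50 to 100 kb. In 1 kb tiles, the density at the genes' flanks was 2.82 times that of the rest of the genome. Against tiles of the same AT content the ratio was 0.958.

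Aligned at the first coding base, 15.5% of Olfr genes on average had a BUR over a position from 250 to 1000 bp before it. The share was 0.271% from 250 to 750 bp after it, inside the coding exon, whose span has a median of 939 bp. It was highest, 20.7%, at 1250 bp, just past the end of a typical exon, and declined to 6.78% from 5 to 10 kb after. Around 20312 other protein-coding genes, the share was 1.99% before the start and 2.42% from 5 to 10 kb after. Brain urea SATB1 peaks had the same outline, with 7.38% before the start, 0.286% inside the exon and 8.68% at 1250 bp after. The AT content around the Olfr start was 65.1% before, 55.0% inside and 64.5% after. Neighbouring Olfr genes are a median of 19.3 kb apart, so that 1 BUR can be counted for 2 genes at the outer distances.

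**Figure D2:**
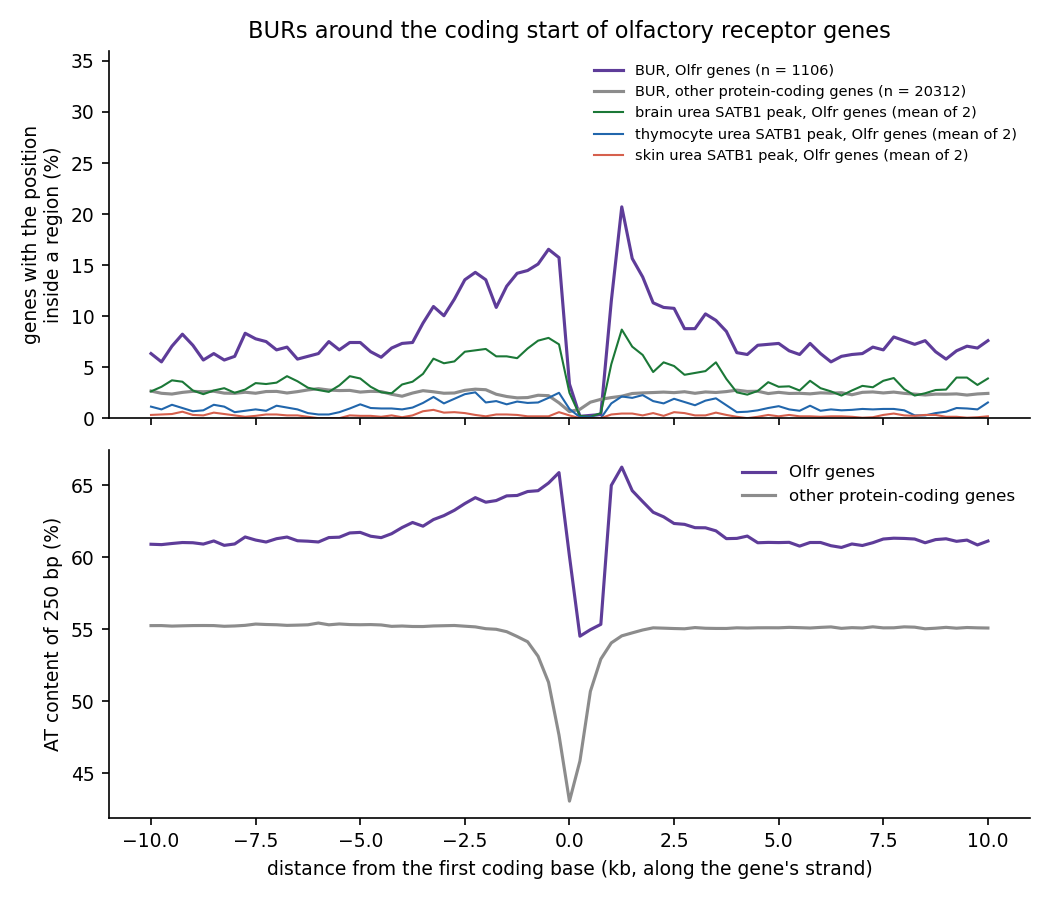
Percentage of Olfr genes with a BUR or a urea SATB1 peak over each position, in steps of 250 bp from 10 kb before to 10 kb after the first coding base, with the same for BURs around other protein-coding genes (upper plot), and AT content of 250 bp around each position (lower plot). BURs stand at up to 16.5% before and 20.7% after a gap at the coding exon, where the share is as low as 0.181% and the AT content of Olfr genes dips.

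Nearly every receptor gene had a BUR at hand. The number of BURs within 50 kb of an Olfr gene had a median of 16 and a range from 1 to 34, and 1054 genes had one within 10 kb. In the 5 largest clusters, the genes with the most BURs within 50 kb were Olfr1182 on chromosome 2 with 34, Olfr618 of the class I cluster, Olfr146 on chromosome 9 and Olfr815 on chromosome 10 with 30 each, and Olfr1449 on chromosome 19 with 22. Of the 34 around Olfr1182, 3 and 2 were bound in the skin lists, 3 and 4 in thymocytes and 15 and 13 in brain. Of the 30 around Olfr146, 3 and 4 were bound in skin, 6 and 6 in thymocytes and 19 and 18 in brain. Within 10 kb, the highest numbers were 12 at Olfr722 on chromosome 14, 10 at Olfr1065 and Olfr1231, and 9 at Olfr1066, these 3 on chromosome 2, and 9 at Olfr309 on chromosome 7. In both replicates, 784 genes (70.9%) had a bound BUR within 10 kb in brain, 418 (37.8%) in thymocytes and 118 (10.7%) in skin. The same held for 37.9%, 24.0% and 11.2% of other protein-coding genes, of which 73.8% had any BUR within 10 kb, against 95.3% of Olfr genes.

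The next question was how many of these BURs carried SATB1 in cells. A BUR was counted as bound when it shared at least 1 bp with a peak. In skin, 173 (3.72%) and 177 (3.81%) of the 4649 BURs were bound in replicates 1 and 2, against backgrounds of 3.68% and 3.61% of all BURs on chromosomes 1 to 19. In thymocytes, 710 (15.3%) and 615 (13.2%) were bound, against 14.6% and 12.9%. In brain, 1852 (39.8%) and 1696 (36.5%) were bound, against 37.4% and 34.5%. The members' shares were thus near the background in every list, and the lists of the 3 tissues did not overlap in either.

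The bound share followed the order skin, thymocytes, brain, at 3.76% ± 0.0608, 14.3% ± 1.44 and 38.2% ± 2.37 (SD, n = 2 each). A Jonckheere-Terpstra permutation test, exact and one-sided, gave p = 0.0111, the smallest value that 90 arrangements allow. The order tested is the one that the study reported for all BURs from its urea ChIP-seq of these tissues. The p-value is therefore no independent evidence for it. The lists also differed in length in this order. With each list cut to its 10846 strongest peaks, thymocytes had 4.23% and brain 5.11%, and the order was kept (p = 0.0111, exact), but the difference between brain and skin was 1.38 percentage points in place of 34.4. Age and tissue cannot be told apart here, and the part of list length in this order was not tested further.

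**Figure D3:**
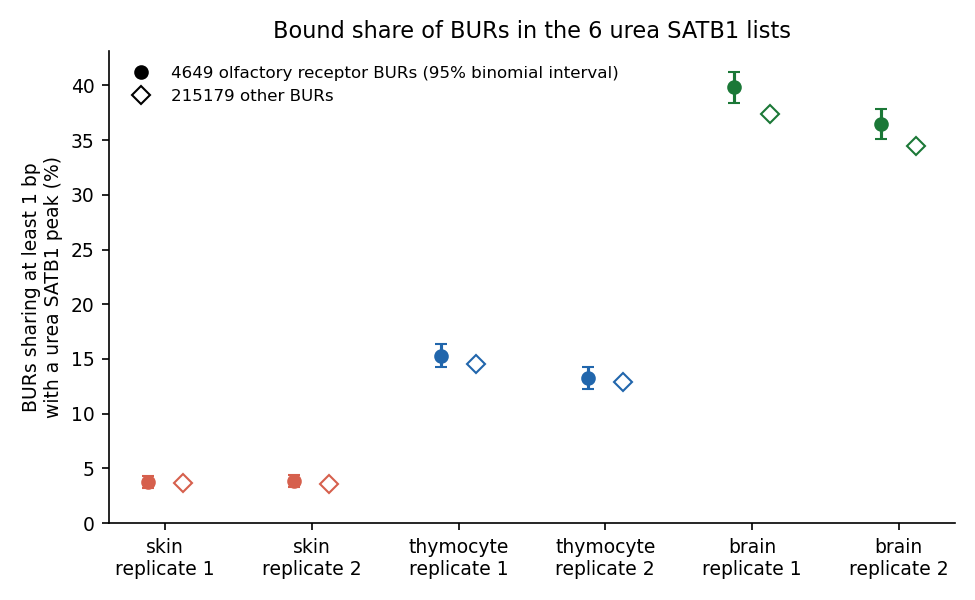
Percentage of the 4649 olfactory receptor BURs (filled circles, with exact 95% binomial intervals, which cover counting error only) and of the 215179 other BURs (open diamonds) that share at least 1 bp with a peak, in each of the 6 urea SATB1 lists. The 2 marks of each list lie close together, from 3.72% and 3.67% in skin replicate 1 to 39.8% and 37.3% in brain replicate 1.

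Relative to other BURs, the bound shares of the olfactory receptor BURs differed little, and the call depended on the setting. The ratio of the bound share to that of other BURs was 1.01 and 1.06 in skin, 1.05 and 1.02 in thymocytes and 1.07 and 1.06 in brain, a mean log2 ratio of 0.06 ± 0.03 (SD, n = 6), above 0 in 6 of 6 lists. The exact two-sided sign-flip permutation test gave p = 0.03125, the smallest value that 6 lists allow, and it treats the lists as independent although the 2 of a tissue share most of their bound BURs. The study describes its replicates as cells from different animals. In every tissue, however, the titles of the pair share an experiment number. They differ in amplification cycles in brain, in antibody amount in thymocytes and in seconds in skin. The lists of a pair may thus stem from a single preparation, and the p-values may measure technical spread. The counting interval of the members' share excluded the share of other BURs only in the 2 brain lists. The threshold was not passed in 9 of 15 alternatives, 6 of them with 5 lists, which cannot pass it. The call was lost when 50% of a BUR had to be covered (mean log2 ratio 0.01, p = 0.875, exact) and with lists of equal size (0.04, p = 0.1875, exact). Standardised over 5 equal classes of in vitro enrichment, the mean log2 ratio was 0.19 (p = 0.03125, exact). The log2 ratio was not ordered by tissue (exact two-sided Jonckheere-Terpstra test, p = 0.178), and the order was the opposite after that standardisation (brain minus skin -0.11, p = 0.0222, exact).

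In vitro, the olfactory receptor BURs were enriched somewhat less than other BURs, with a median fold enrichment over local background of 5.60 against 5.97 (quartiles 3.98 and 8.08 against 4.23 and 8.95), while their median length (446 and 440 bp), AT content (71.8% and 70.6%) and longest run without C or without G (42 and 43 bp) were alike. Only 14.3% of them, against 20.1% of other BURs, lay in the highest of 5 equal classes of enrichment of all BURs. Binding in cells differed between these classes. In class 3 of the 5, 46.2% and 43.0% of the members were bound in the brain lists, in class 4 they were bound at 57.0% and 53.2%, and in class 5, the highest, at 51.4% and 47.4%. Other BURs of class 3 were bound at 40.4% and 37.2%, those of class 4 at 47.3% and 43.8%, and those of class 5 at 47.9% and 44.7%. The members' share in brain was thus lower in class 5 than in class 4, while that of other BURs was slightly higher. In skin, 3.55% of the members of class 3 were bound in each list, against 2.45% and 2.37% of other BURs. In class 1, the lowest, the members' share was below that of other BURs in all 6 lists, with ratios from 0.76 to 1.00.

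The BURs bound in skin and in thymocytes were largely a subset of those bound in brain. Counting BURs bound in both replicates of a tissue, 142 of 147 (96.6%) in skin were also bound in thymocytes and 144 (98.0%) in brain, and 538 of 546 (98.5%) in thymocytes were also bound in brain. In the other direction, 34.7% of the 1551 BURs bound in brain were bound in thymocytes and 9.28% in skin. For other BURs the same shares were 94.1%, 93.8%, 97.9%, 35.0% and 9.17%. A total of 140 olfactory receptor BURs (3.01%) were bound in all 6 lists, 804 (17.3%) in both brain lists and none of the other 4, and 2641 (56.8%) in none. For other BURs these shares were 2.86%, 16.3% and 59.3%, near those of the members. The median in vitro enrichment of the 3 sets was 9.04, 6.47 and 4.81 for the members and 10.4, 6.43 and 5.35 for other BURs.

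Replicates of a tissue were close for the members. In brain, 83.7% of the BURs bound in replicate 1 were bound in replicate 2 and 91.5% the other way, in thymocytes 76.9% and 88.8%, and in skin 85.0% and 83.1%. The values for other BURs lay within 2.51 percentage points of these in all 6 cases.

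Single BURs show how wide the range of enrichment was. The BUR at chr2:86999757-87000396, whose sequence stands first above, had a fold enrichment of 12.3 in vitro, of 13.1 and 15.6 in skin, 26.8 and 26.6 in thymocytes and 26.8 and 28.0 in brain. A second at chr2:87918766-87919311, intergenic and 7.47 kb from Olfr1163, had 14.6 in vitro, 13.1 and 11.5 in skin, 26.4 and 25.4 in thymocytes and 26.0 and 25.5 in brain. At both, the skin values lay below all 4 others. The third, chr15:98043089-98043589 in an intron of Olfr288, had 13.4 in vitro, 26.5 and 25.3 in skin, 31.8 and 32.3 in thymocytes and 25.0 and 26.3 in brain, so that its skin and brain lists overlapped. None of the 3 overlapped a standard SATB1 or CTCF peak. In contrast, the BURs at chr11:73746389-73747053 near Olfr23 and chr11:58474474-58475282 near Olfr179 had in vitro enrichments of 22.3 and 21.7 and no peak in any of the 10 lists. The longest BUR (chr10:128550332-128552419, 4.71 in vitro) had a peak in both brain lists at 6.17 and 5.08 and in both standard SATB1 lists at 4.51 and 4.61. A list names no value where no peak was called, so enrichment below the calling threshold is not known.

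Occupancy also differed between clusters. Over the 16 named clusters the mean bound share of 2 lists ranged from 26.7% to 45.9% in brain, from 9.27% to 17.9% in thymocytes and from 0% to 6.85% in skin. The chromosome 2 cluster of 221 genes had 44.0% and 39.8% in brain, 16.2% and 13.6% in thymocytes and 2.90% and 3.00% in skin. The chromosome 9 cluster of 94 genes had 42.8% and 38.6% in brain, 14.5% and 13.8% in thymocytes and 3.73% in both skin lists. Both lay close to the share over all members. By the mean of 2 lists, the highest named cluster in brain was that of 25 genes on chromosome 7, at 45.2% and 46.6% (33 and 34 of 73 BURs). In replicate 1 the chromosome 2 cluster of 37 genes was as high, at 45.2%, and in replicate 2 it had 39.2%. In skin the chromosome 7 cluster had 5.48% and 8.22% (4 and 6 of 73 BURs). There it did not differ beyond the spread from the same chromosome 2 cluster, at 7.04% and 5.53%. In thymocytes the clusters of chromosome 14, at 19.4% and 16.4%, and of 37 genes on chromosome 2, at 18.6% and 17.1%, were highest and did not differ beyond their spread.

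The lowest were few. The chromosome 19 cluster had 10.4% and 8.11% in thymocytes, 1.93% and 2.32% in skin and 35.5% and 32.0% in brain. All of these were below the backgrounds of their lists. The cluster of 40 genes on chromosome 7 had 11.2% and 8.12% in thymocytes and 36.9% and 35.6% in brain. The sparse chromosome 11 cluster of 20 genes had 30.0% and 23.3% in brain, 13.3% and 10.0% in thymocytes and 0 of 30 BURs in each skin list, which allows a share of up to 10.0%. Among the smaller clusters, a cluster of 14 genes on chromosome 1 (chr1:175972064-176379733, 72 BURs), chosen after its values were seen, had 36.1% and 31.9% in brain, 2.78% in both thymocyte lists and 0% in both skin lists, where a count of 0 allows up to 4.17%. Of the 53 clusters, 20 had no bound BUR in either skin list, 9 in either thymocyte list and 2 in either brain list. Across the 53, the mean brain share went with BUR density in rank (Spearman's rho = 0.54, Pearson's r = 0.51), the thymocyte share less so (0.32 and 0.17) and the skin share least (0.29 and 0.02), a description of clusters that share their libraries and differ in size.

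**Figure D4:**
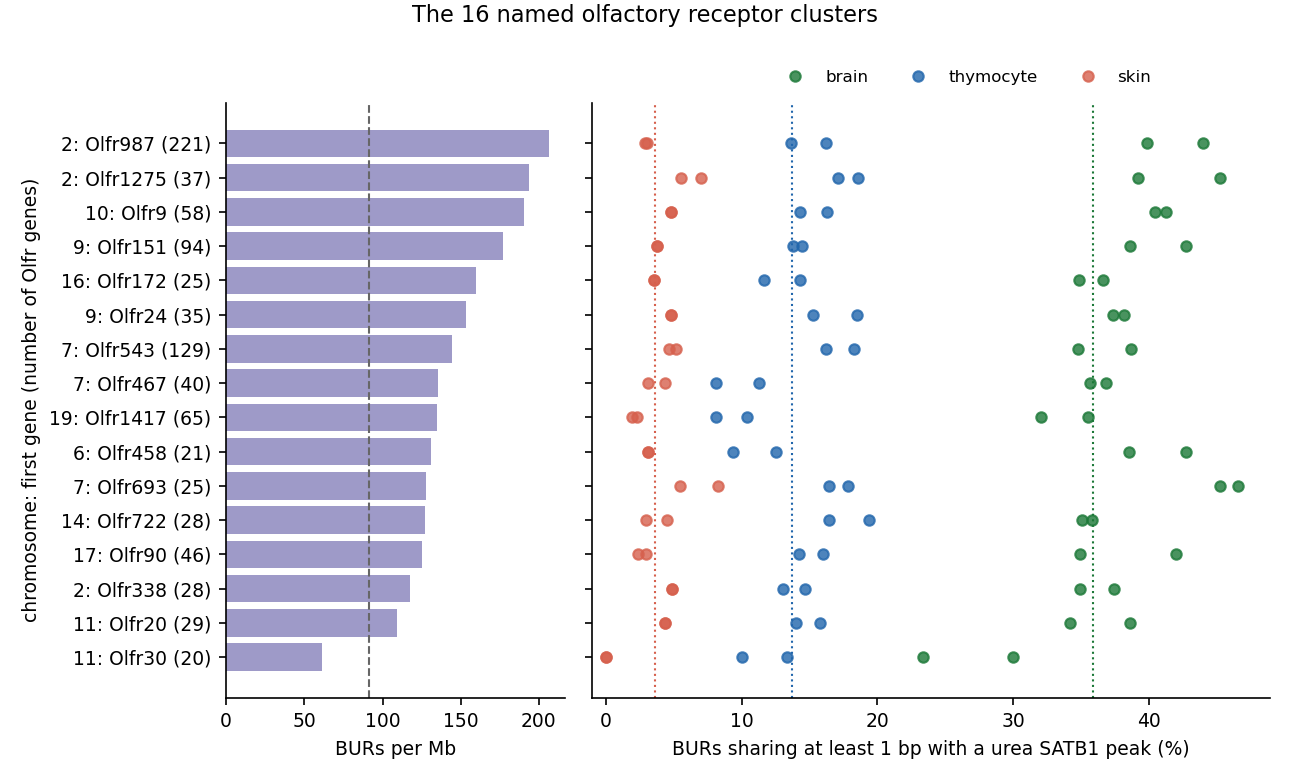
BURs per Mb (bars, left, with the rest of chromosomes 1 to 19 as a dashed line) and percentage of BURs sharing at least 1 bp with a urea SATB1 peak (right, 1 point per list, with the mean share of other BURs in each tissue as dotted lines) in the 16 named clusters, ordered by density and labelled by chromosome, first gene and number of Olfr genes. Density spans 61.6 to 206 per Mb, while in each tissue the points of most clusters lie around the dotted line.

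The class I cluster was compared with the 52 class II clusters together. In skin, 5.15% and 4.64% of its 388 BURs were bound, against 3.59% and 3.73% of the 4261 BURs of class II clusters, and in thymocytes 18.3% and 16.2% against 15.0% and 13.0%. In brain, 38.7% and 34.8% were bound, against 39.9% and 36.6%. The mean log2 ratio of 0.22 ± 0.23 (SD, n = 6) was above 0 in 4 of 6 lists and did not differ from 0 (exact two-sided sign-flip test, p = 0.125). With lists of equal size it was 0.55, and the test passed the threshold of 0.05 (p = 0.03125, exact).

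Peaks, counted whether on a BUR or not, gave the same picture for urea SATB1. Peak density in the windows was 5.74 and 5.83 per Mb in skin, 25.2 and 21.4 in thymocytes and a mean of 63.7 ± 3.85 (SD, n = 2) in brain, which was 1.34 to 1.43 times that of the rest. Of these peaks, 83.2% to 89.8% lay on a BUR in the windows and 72.5% to 79.4% elsewhere. Peaks off BURs were less dense in the windows than elsewhere in all 6 lists, for example 11.2 against 12.8 per Mb in brain replicate 1.

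Standard SATB1 and CTCF peaks had the reverse distribution. Their density in the windows was 9.13 and 5.47 per Mb for standard SATB1, against 19.7 and 11.1 in the rest, and 4.11 and 6.40 for CTCF in thymocytes and skin, against 8.32 and 12.8, so that the ratio was 0.465 to 0.501 in the 4 lists. Few olfactory receptor BURs met them. With standard SATB1, 15 (0.323%) and 18 (0.387%) BURs were overlapped, against backgrounds of 0.664% and 0.534%. With CTCF, 7 (0.151%) were overlapped in thymocytes and 13 (0.280%) in skin, against 0.231% and 0.534%. BURs in the gene-free bins were overlapped at 0.203% and 0.240% by standard SATB1 and at 0.0459% and 0.215% by CTCF. Those around vomeronasal receptor genes had 0.192% and 0.231%, and 0.115% and 0.231%. All of these lay below the olfactory receptor values. Across the 53 clusters, peak density fell with AT content (Spearman's rho = -0.68 for mean standard SATB1, -0.72 for CTCF in thymocytes). These values are given without a test.

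These peaks were sparse inside the clusters and not beyond them. Between the first and the last Olfr gene of a cluster, the density of standard SATB1 was 5.79 and 3.46 per Mb and in the 50 kb beyond 27.0 and 16.2, and CTCF had 2.08 and 14.9 in thymocytes and 3.89 and 19.8 in skin. BURs had 149.8 per Mb between and 77.2 beyond, and the brain urea SATB1 lists 71.8 and 66.2 between and 38.1 and 33.4 beyond. By distance, CTCF in thymocytes was at 1.37 per Mb within 2 kb of an Olfr gene, 13.7 from 50 to 100 kb and 15.2 from 200 to 500 kb, and standard SATB1 replicate 1 was at 5.92, 29.1 and 35.1 per Mb. In the 50 kb beyond a cluster, CTCF in thymocytes thus lay between its values from 50 to 100 kb and from 200 to 500 kb. The same held for CTCF in skin, with 18.7 and 19.9 per Mb at those distances. Standard SATB1 replicate 1 lay below both of its own values there. BURs were at 273, 66.0 and 65.7 per Mb within 2 kb, from 50 to 100 kb and from 200 to 500 kb. Of the standard SATB1 peaks in the windows, 28.7% and 32.1% lay within 1 kb of the start of a protein-coding gene outside the family, of which the windows hold 180, and 5.21% and 3.80% within 1 kb of the start of an Olfr gene. For urea SATB1 the first share was at most 0.293% and the second 8.62% to 9.84%. By cluster, the sparse chromosome 11 cluster had the highest density of standard SATB1 peaks among the named ones, with 19 and 11 peaks (a mean of 30.8 per Mb), and the chromosome 2 cluster of 221 genes had 8 and 3 peaks, with 1 CTCF peak in thymocytes and 11 in skin.

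**Figure D5:**
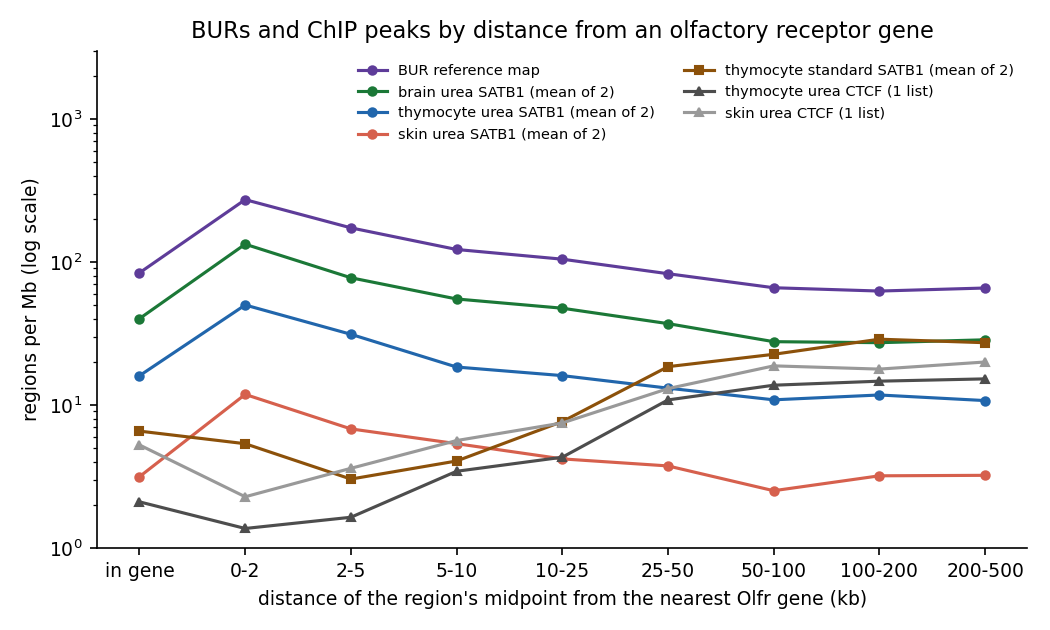
Regions per Mb (log scale) by distance of their midpoint from the nearest Olfr gene, for the BUR reference map, urea SATB1 (mean of 2 lists per tissue), standard SATB1 (mean of 2) and CTCF (1 list each). BURs go from 273 per Mb within 2 kb to 66.0 at 50 to 100 kb and urea SATB1 declines with them, while standard SATB1 and CTCF are lowest near the genes, with CTCF in thymocytes at 1.37 and 13.7 per Mb at the same distances.

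Other chemoreceptor families and the genes that serve olfaction were set beside the olfactory receptors. BURs around the vomeronasal receptor genes were bound at 8.80% and 7.84% in thymocytes and 25.7% and 23.9% in brain, below both lists of the olfactory receptor BURs in each tissue, and at 4.15% and 4.23% in skin, above both. These differences are given without a test. Their median in vitro enrichment was 5.43. BURs in gene-free bins were bound at 15.2% and 13.2% in thymocytes and 40.6% and 37.4% in brain, near the olfactory receptor values. The windows of the 15 trace amine receptor genes (Taar), which form 1 array on chromosome 10, held 40 BURs at 138 per Mb and 58.8% AT, and each gene had 12 to 19 BURs within 50 kb. Of these 40 BURs, 35.0% and 30.0% were bound in brain, 10.0% in each thymocyte list and 2.50% in each skin list. These shares of few BURs lay somewhat below the backgrounds of all BURs, which were 37.4% and 34.5% in brain. In both brain lists, 6 of 14 BURs were bound around Taar1, 8 of 19 around Taar4 and 1 of 12 around Taar9. The counts share BURs since the genes are neighbours.

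Of 22 genes for olfactory signalling and receptor choice, 21 had a BUR within 50 kb, with a median of 5 per gene against 16 for Olfr genes, at 42.1 per Mb and 54.4% AT. The BURs of this list were bound at 22.6% and 21.4% in brain, 8.81% and 9.43% in thymocytes and 4.40% and 3.77% in skin, below the backgrounds of all BURs in brain and thymocytes. Ebf1, a transcription factor of olfactory neurons and B cells, had 35 BURs, of which 11 were bound in both brain lists, and its relative Ebf3 had 13, of which 6 were. Omp, the marker protein of mature olfactory neurons, had 2 and Adcy3, the adenylyl cyclase of odour signalling, had 3, with none bound in both lists of any tissue. Lhx2, a factor of receptor choice, had 3 and its cofactor Ldb1 had 0.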

How the data were processed

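Peak lists of 11 samples were used. Per the labels and methods, the authors aligned reads with Bowtie2 2.3.1 to NCBI37/mm9, kept uniquely matched reads, which limits near-identical receptor genes, and ran MACS2 2.2.7 on every sample separately (q-value 0.01). The use of input DNA was not given in the sources used here. The deposited lists give a score, the fold enrichment (a ratio), and −log10 p and −log10 q values per peak. Scores and p-values were not analysed.

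Overlaps, densities and exact tests used Python 3.11.15, numpy 2.4.6, pandas 2.3.3 and scipy 1.17.1, and plots drawn with matplotlib 3.10.9. The functions were tested on simulated data. Density is midpoints per Mb of non-N sequence. The sign-flip test ran over 64 arrangements. Replicate numbers follow the sample titles. 

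The members, gene lists and tests were chosen with earlier results of these data known. Named were clusters of at least 20 Olfr genes with the class I cluster, in each of the 5 largest the gene with most BURs within 50 kb, the 5 genes with most within 10 kb, and the BURs with the highest enrichment among those bound in all 6 or in none of the urea SATB1 lists and the longest. BURs on coding exons bound in all 6 lists, 8 in number, exceeded the limit of 5 for naming. Alternatives are given in the closing section. A BUR that this rule names is not reported here.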

Additional observations from a re-analysis of the deposited data

Results flagged for a closer look

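The class I cluster was bound more often than class II clusters in both skin and both thymocyte lists and less often in both brain lists. The mean log2 ratio was higher in skin than in brain by 0.48 and higher in thymocytes than in brain by 0.37. These results stand out because every list of one tissue lay above 0 and every list of the other below it, and the difference between tissues was not tested.

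The 7 Olfr genes of chromosome X lie outside the rule for members. Their windows held 36 BURs, or 62.9 per Mb, at 60.5% AT. In each skin list 1 was bound (2.78%), against backgrounds of 3.68% and 3.61%. In each thymocyte list 5 were bound (13.9%), against 14.6% and 12.9%. In the brain lists 16 and 13 were bound (44.4% and 36.1%), against 37.4% and 34.5%. The backgrounds are those of all BURs on the chromosomes of the members. These shares of few BURs lay below the backgrounds in skin, between them in thymocytes and above them in brain. The differences were not tested. These BURs are given because the comparisons did not use them.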

How the results depend on the processing

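Without 1 of the 6 urea SATB1 lists at a time, the mean log2 ratio of olfactory receptor to other BURs ranged from 0.057 to 0.072 and could not pass the threshold, as 5 lists allow no exact p below 0.0625. Within 25 kb of an Olfr gene it was 0.065 (p = 0.0625, exact), with lists of equal size 0.039 and with 50% of the BUR covered 0.0055. The brain minus skin difference of this ratio, 0.04, was 0.081 within 25 kb (p = 0.0222, exact) and -0.11 when standardised over 5 classes of in vitro enrichment. It was 0.134 with 50% of the BUR covered (p = 0.0667, exact) and ranged from 0.01 to 0.07 without 1 list. The class I ratio was 0.55 with lists of equal size. The causes were not tested, beyond the smaller number of lists or peaks these settings leave. The order of the bound share by tissue kept its direction and call in all 16 alternatives.

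Bound shares in skin, 3.76%, were 3.70% within 25 kb, 3.70% within 100 kb, 2.85% with 50% of the BUR covered and 3.66% with the BUR summit inside the peak. In thymocytes the share was 4.23% with lists of equal size and 11.6% with 50% covered, and in brain 5.11% and 35.6%. For standard SATB1 the share, 0.355%, was 0.402% within 100 kb, 0.0645% with 50% covered and 0.129% by summit. For CTCF it was 0% and 0.0215% in thymocytes and 0.0645% and 0.129% in skin with 50% covered and by summit. Without 1 list, the mean share was that of the other list.

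Peak densities per Mb within 25 and 100 kb were 6.15 and 5.24 in skin, 68.5 and 57.7 in brain, 2.91 and 5.72 for CTCF in thymocytes and 5.22 and 8.47 for CTCF in skin. In skin the density was 5.68 with peaks of −log10 q of at least 5. With lists of equal size it was 5.70 in skin, 6.20 in thymocytes and 7.04 in brain. BUR density was 148 and 126 per Mb within 25 and 100 kb, the ratio to the rest 1.63 and 1.38, and 1.06 within strata of AT content. The ratio of the genes' flanks, 2.82, was 0.958 in tiles of like AT content, an alternative chosen after seeing the data.

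The same replicate numbers in different tissues denote no shared animals by label, and the deviations of same-numbered lists correlated at 0.01, 0.01 and -0.01. With a replicate block, the brain minus skin difference of the ratio, 0.04, had p = 0.222 and that of the bound share, 34.4 percentage points, p = 0.0278, both exact, with no change of call. Depth could not be computed from peak lists, and bound shares depend on list length.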
